A study of Mus musculus with 6 samples.

Results

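Glucose uptake, glycolytic enzyme, lactate export and hypoxia genes were examined in the accessible chromatin of mouse CD8+ T cells. The set has 32 genes, 21 of glucose uptake and glycolysis and 11 that regulate or answer the hypoxia-inducible factor (HIF), out of 21887 protein-coding genes. ATAC-seq was used, an assay whose transposase cuts open DNA and leaves sequencing adapters there. A peak, a stretch with more cuts than its surroundings, belonged to the gene nearest to its summit, at most 100 kb away. Overlapping peaks of the 6 libraries were merged into 134174 regions, of which 357 had 1 of the 32 genes as the nearest by their midpoint, 214 at glycolysis genes and 143 at HIF genes. Of these, 2 regions lay equally near to a further gene.

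The T cells came from mouse spleen and were enriched for CD8+ cells by removal of other cells. Activation was by anti-CD3 (5 µg/mL) and anti-CD28 (1 µg/mL), and the cells stayed in a lower transwell chamber for 48 h. Lung adenocarcinoma cells resistant to PD-1 blockade sat in the upper insert, behind a membrane with 0.4 µm pores. In the Res-shFabp7 group (3 libraries) the tumour cells carried a short hairpin RNA against Fabp7, a fatty acid binding protein, and in the Res-ctrl group (3 libraries) they were the resistant control cells. The T cells of both groups had no stated modification, so the libraries hold no check of the knockdown. Strain, sex and age of the mice, how many mice gave the cells, and whether the knockdown line is 1 clone are not stated in the sources used here. The replicates are called biological in the labels, and p-values set the difference between groups against the spread between these libraries.

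Glycolysis splits glucose into pyruvate, and activated T cells are known for taking up more glucose and exporting much of the carbon as lactate. Under low oxygen the HIF alpha subunit escapes the prolyl hydroxylases that mark it for destruction by the Vhl complex, pairs with Arnt and binds DNA at the letters ACGTG or GCGTG. Many glycolysis genes are textbook HIF targets, and T cell receptor signalling can also raise HIF in oxygenated cells.

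The stretches of 250 bases before the gene start, 5′ to 3′ on the strand of the gene, are shown for 6 genes. Ldha, Pgk1 and Bnip3 are classical HIF targets, Hif1a and Hk2 each had at least 1 region called only with Res-shFabp7, and the only region called solely with Res-ctrl lay just upstream of the P4ha1 stretch. Capitals mark ACGTG or GCGTG on either strand, CACGT and CACGC being their complements, and CACGTG is ACGTG on both strands. The sequences are from RefSeq on GRCm38.p6. They lie at chr7:46845554-46845803 (plus strand) for Ldha, chrX:106186850-106187099 (plus) for Pgk1, chr7:138909507-138909756 (minus) for Bnip3, chr12:73907617-73907866 (plus) for Hif1a, chr6:82774455-82774704 (minus) for Hk2 and chr10:59323046-59323295 (plus) for P4ha1.
Ldha: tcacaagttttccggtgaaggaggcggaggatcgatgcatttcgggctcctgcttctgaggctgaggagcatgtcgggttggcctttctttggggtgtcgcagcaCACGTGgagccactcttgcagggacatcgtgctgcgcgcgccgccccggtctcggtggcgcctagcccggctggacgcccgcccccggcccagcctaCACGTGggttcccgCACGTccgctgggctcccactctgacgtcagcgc
Pgk1: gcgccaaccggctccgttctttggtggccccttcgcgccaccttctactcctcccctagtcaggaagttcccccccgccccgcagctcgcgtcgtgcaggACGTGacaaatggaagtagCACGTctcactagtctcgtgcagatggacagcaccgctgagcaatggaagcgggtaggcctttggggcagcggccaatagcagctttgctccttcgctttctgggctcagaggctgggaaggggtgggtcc
Bnip3: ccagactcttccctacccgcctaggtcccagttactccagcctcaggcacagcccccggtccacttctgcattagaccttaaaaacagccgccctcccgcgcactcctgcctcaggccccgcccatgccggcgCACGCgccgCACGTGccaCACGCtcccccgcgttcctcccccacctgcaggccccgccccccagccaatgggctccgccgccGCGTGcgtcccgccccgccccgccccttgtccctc
Hif1a: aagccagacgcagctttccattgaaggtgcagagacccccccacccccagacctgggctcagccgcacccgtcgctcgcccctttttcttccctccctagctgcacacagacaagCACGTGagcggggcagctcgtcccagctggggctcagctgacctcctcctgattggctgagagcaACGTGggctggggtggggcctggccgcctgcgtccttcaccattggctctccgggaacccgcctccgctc
Hk2: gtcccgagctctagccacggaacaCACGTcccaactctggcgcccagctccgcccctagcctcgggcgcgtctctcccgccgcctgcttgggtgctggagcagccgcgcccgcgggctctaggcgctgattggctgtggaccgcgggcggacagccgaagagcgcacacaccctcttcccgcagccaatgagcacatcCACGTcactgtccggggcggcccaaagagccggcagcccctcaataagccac
P4ha1: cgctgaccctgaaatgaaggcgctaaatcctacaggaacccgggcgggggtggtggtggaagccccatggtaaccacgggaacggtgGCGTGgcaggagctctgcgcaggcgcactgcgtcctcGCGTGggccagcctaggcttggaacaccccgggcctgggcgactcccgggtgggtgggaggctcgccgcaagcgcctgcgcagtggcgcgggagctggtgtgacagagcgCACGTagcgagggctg

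The libraries differed in list length and depth in a way that touches every count. The Res-shFabp7 lists held 100243 to 105796 peaks and the Res-ctrl lists 82153 to 96310. The most frequent local background of a list, a relative measure of depth, was 0.868 to 1.026 with Res-shFabp7. It was 0.709 and 0.608 in Res-ctrl replicates 1 and 2 and 1.006 in replicate 3, so that replicate 3 lay within the Res-shFabp7 range. At 12 of 12 genes marking CD8 T cells a region was called in all 6 libraries, against 5 of 7 B cell markers and 2 of 7 epithelial markers. The same held at 4 of 4 CD4 and regulatory T cell markers, so this count does not tell these T cell lists apart. No region was assigned to Ms4a1 of B cells or to Krt8, Krt19 and Sftpc of epithelium, while 33 regions lay at the B cell list and 20 at the epithelial list.

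All 32 genes had open chromatin in every library. These are bulk samples, in which fewer cells with an open site and less opening per cell cannot be told apart. Each had at least 1 region called in all 6 libraries, against 14067 of the 21887 protein-coding genes (64.3%). The genes held a median of 8.5 regions, against 3 for all protein-coding genes. Of their 357 regions, 171 (47.9%) were called in all 6 libraries, against 42.2% of all regions. At glycolysis genes it was 109 of 214 (50.9%) and at HIF genes 62 of 143 (43.4%). A further 67 member regions (18.8%) were called in a single library, against 23.3% of all regions.

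Hif1a had the most regions, 35, followed by Egln3 with 31, Pfkfb3 with 30, Pfkp with 22 and Hk2 with 20. Tpi1 and Vhl had 2 each and Gpi1, Aldoa and Egln2 3 each. Pfkfb3 makes the activator of phosphofructokinase, and 29, 32 and 28 peaks were assigned to it in Res-shFabp7 replicates 1 to 3, against 23, 22 and 27 in Res-ctrl replicates 1 to 3. Hk2, the inducible hexokinase that traps glucose in the cell, had 16, 15 and 17 peaks with Res-shFabp7 and 13, 10 and 14 with Res-ctrl. Pfkp, the platelet-type phosphofructokinase, had 18 peaks in every Res-shFabp7 library and 13, 15 and 17 with Res-ctrl. Gapdh had 4 peaks in every Res-shFabp7 library and 3, 1 and 2 with Res-ctrl. In these 4 of 32 genes (12.5%) every Res-shFabp7 library had more peaks than every Res-ctrl library. The same held for 11.3% of the 14098 genes with a peak in every library, so the share of the 32 genes lay near that of all genes. None of the 32 had fewer peaks in every Res-shFabp7 library, against 0.567% of all such genes.

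**Figure D1:**
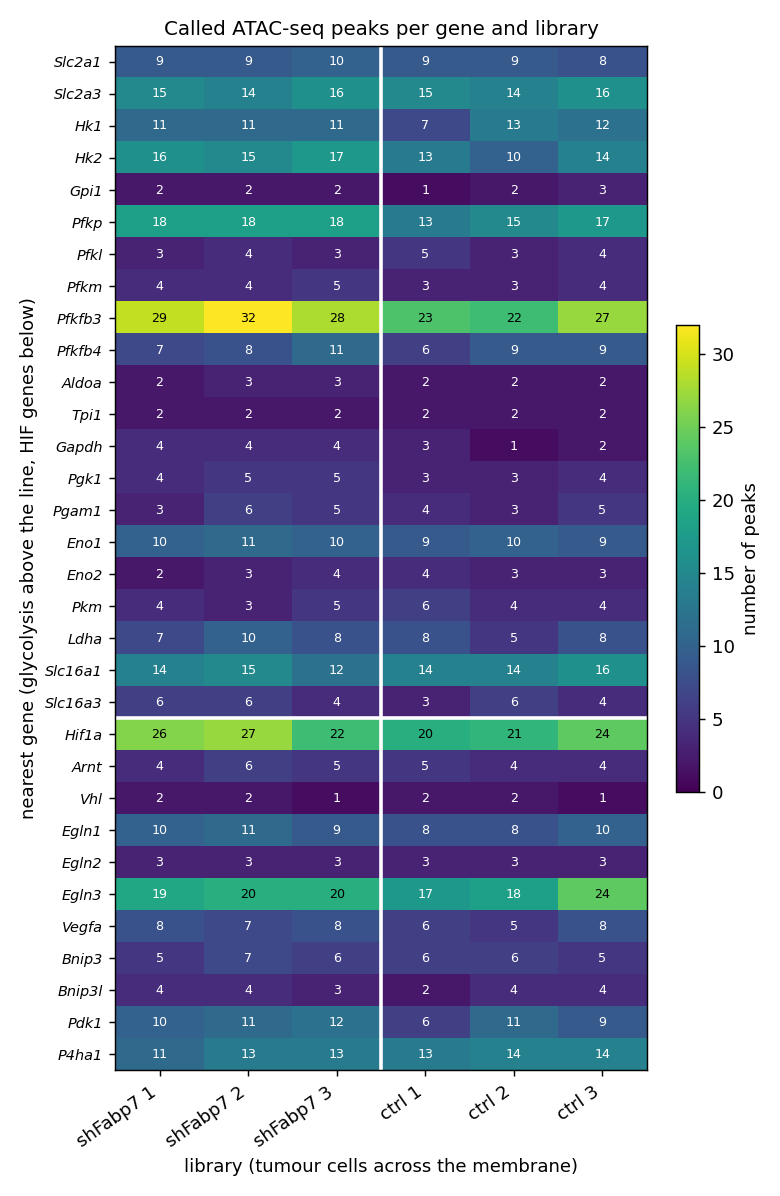
Number of called peaks assigned to each of the 32 genes (rows) in each library (columns, Res-shFabp7 left of the white line), with colour and printed number both giving the count. Hif1a, Egln3 and Pfkfb3 hold the most peaks, and Hk2, Pfkp, Pfkfb3 and Gapdh have more in every Res-shFabp7 library than in any Res-ctrl library.

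The promoters of the genes were open in both groups. RefSeq start windows, 250 bases before to 50 after a start, were at hand for 30 of the 32 genes, and not for Slc2a3 and Bnip3l. All 30 had at least 1 window overlapped by a peak in all 6 libraries, against 8833 of 17492 protein-coding genes (50.5%). Counted by window, 35 of 44 member windows were open in all 6 libraries, among them both of Pfkfb3 and both of Ldha. The 9 others were alternative starts of Hk1, Pfkm, Aldoa, Eno1, Pkm, Egln2, Vegfa and Pdk1, and each of them had no peak in any library.

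The height of the promoter peaks differed widely between genes. The fold is the authors' own value for each peak, its height over the local background, and it describes peaks within a list. Its mean over the libraries had a median of 18.0 over the 35 open member windows, against 21.0 over the 10213 open windows of all genes. Pfkfb4, the other inducible regulator of phosphofructokinase here, had the highest, with 33.7, 34.1 and 35.7 with Res-shFabp7 and 35.4, 35.3 and 33.8 with Res-ctrl. Pgk1, which makes the first ATP of glycolysis, had 29.5, 33.2 and 31.5 with Res-shFabp7 and 33.5, 30.2 and 31.8 with Res-ctrl. The groups overlapped at both. The lowest was Slc16a3, a lactate exporter, with 6.69, 7.35 and 6.72 with Res-shFabp7 and 5.70, 6.43 and 6.96 with Res-ctrl. Ldha, which turns pyruvate into lactate, had 13.9, 14.7 and 12.1 with Res-shFabp7 and 13.2, 11.1 and 14.9 with Res-ctrl at the promoter printed above.

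**Figure D2:**
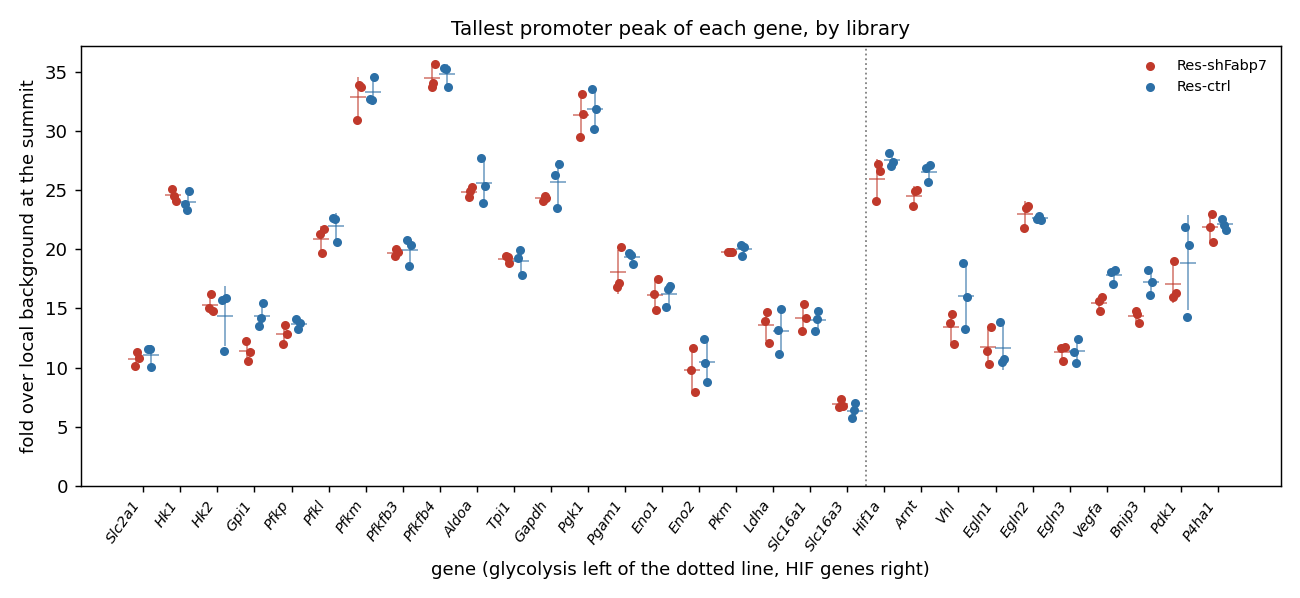
Fold over local background (linear axis from 0) at the tallest promoter peak of the 30 genes with a start window, in each Res-shFabp7 (red) and Res-ctrl (blue) library, with the mean as a horizontal line and the SD (n = 3) as a vertical line. Folds run from below 10 at Slc16a3 to above 30 at Pfkm, Pfkfb4 and Pgk1, and red and blue points overlap at most genes.

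The letters that HIF reads were common in these promoters. ACGTG stood in a start window of 20 of the 30 genes (66.7%), on either strand, against 23.2% of all protein-coding genes with a window. Taking only genes whose open windows hold it, it was 18 of 30 (60.0%) against 29.3% of the 8833 genes with an open window. ACGTG or GCGTG stood in windows of 26 of 30 (86.7%), against 52.3% of all genes. In open windows alone it was 24 of 30 genes (80.0%), against 69.4% of the 8833, a smaller gap. The E-box CACGTG, which contains ACGTG, was in 7 of 44 member windows (15.9%) and in 7.84% of all 21263 windows. The GC box letters GGGCGG were in 63.6% of member windows and 46.2% of all windows. CACGTG and GGGCGG were counted over windows whether open or not. The 300-base window of Ldha had the letters ACGTG 5 times, counting both strands, with 2 copies of CACGTG. These are matches of letters, and no binding was measured.

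Away from the promoters calling was less uniform. Of 36 member regions that overlapped any start window, 34 (94.4%) were called in all 6 libraries, all 24 at glycolysis genes and 10 of 12 at HIF genes, against 85.0% of 10445 such regions of all genes. Inside the genes but away from windows it was 72 of 182 (39.6%), against 38.1% for all genes. Outside the genes it was 41 of 93 (44.1%) within 20 kb and 24 of 46 (52.2%) at 20 to 100 kb, against 41.0% and 38.5% for all genes. Of the 30 genes with a window, 16 had their tallest shared region by mean fold at a window and 14 away from it. Pileup can rank regions otherwise. The tallest region of Pfkl by fold had a pileup of 34 to 61, against 211 to 281 at its promoter region. The count by pileup is not given.

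**Figure D3:**
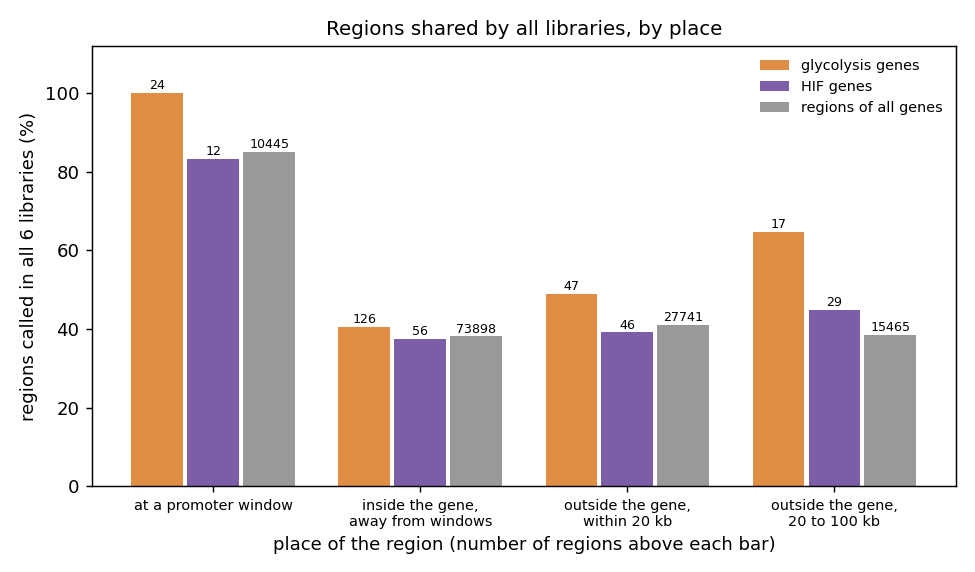
Share of regions called in all 6 libraries (percent, vertical axis) by place relative to the gene, for glycolysis genes, HIF genes and all genes, with the number of regions above each bar. In all 3 sets the share is highest at promoter windows, where it is 100% of 24 glycolysis regions, 83.3% of 12 HIF regions and 85.0% of all.

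Among the genes of glucose uptake and lactate export, the tallest regions by mean fold lay inside or beyond the genes. Slc2a1, the main glucose transporter of activated T cells, had its tallest shared region by mean fold at chr4:119127073-119127711, inside the gene and 18647 bp downstream of the start. Its fold was 24.6, 24.0 and 22.7 with Res-shFabp7 and 26.7, 21.8 and 27.0 with Res-ctrl, so the groups overlapped. By pileup chr4:119105732-119106109, 2825 bp upstream of the gene, was taller in every library. Its pileup was 314, 245 and 298 with Res-shFabp7 and 246, 194 and 369 with Res-ctrl. Slc2a3, the neuronal-type glucose transporter that T cells also use, had 12 of 18 regions in all libraries. Its tallest was at chr6:122810671-122811598, 8771 bp outside the gene, with a pileup, the coverage at the summit, of 428, 429 and 435 with Res-shFabp7 and 346, 318 and 449 with Res-ctrl. Slc16a1, a lactate and pyruvate transporter, had the tallest region of all 32 genes by mean fold at chr3:104700844-104701305, 42612 bp beyond the gene. Its fold was 42.8, 45.1 and 37.5 with Res-shFabp7 and 37.3, 29.3 and 39.4 with Res-ctrl, and the groups overlapped.

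Among the HIF genes, Hif1a itself was open at its promoter and at a string of regions upstream. The promoter region had a fold of 24.1, 27.2 and 26.6 with Res-shFabp7 and 28.1, 27.1 and 27.4 with Res-ctrl. Egln3, an oxygen-sensing prolyl hydroxylase that is itself a HIF target, had its tallest region by mean fold 89423 bp from the gene at chr12:54292935-54293659. Pdk1, the kinase that holds pyruvate back from mitochondria, had its tallest by that measure 37681 bp away at chr2:71941119-71941960. Its fold was 29.8, 29.3 and 32.9 with Res-shFabp7 and 30.3, 27.6 and 29.9 with Res-ctrl. These regions lay far from the genes they are counted under, and whether they act on them was not measured.

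Of the 357 regions, 7 were called only with Res-shFabp7 (3 of 3 libraries, and 0 of 3 Res-ctrl libraries), and 1 was called solely with Res-ctrl by the same rule. They lay at Hk2, Pfkp, Pfkfb4, Ldha, Hif1a (2 regions) and Egln1, and at P4ha1. The 7 are 1.96% of the member regions, against 2.28% of all regions, and the 1 is 0.280%, against 0.155% of all. Both shares lie near the background. Presence calls of a single region in 3 against 3 libraries cannot go below an exact p of 0.1, so they were not tested. No such region lay at a start window.

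Of the 4 regions called only with Res-shFabp7 at the glycolysis genes, all but the Pfkp region were low by pileup. At Hk2 the region chr6:82715806-82715942, 9151 bp beyond the gene, had a pileup of 11, 10 and 16 in the Res-shFabp7 libraries. At Pfkp the region chr13:6632651-6632836, inside the gene, had a pileup of 41, 43 and 29 and a fold of 3.14, 3.76 and 2.48. It lay 638 bp from the nearest Res-ctrl peak and beside a tall region of all 6 libraries, chr13:6633475-6634058, whose pileup was 299, 283 and 319 with Res-shFabp7 and 209, 185 and 326 with Res-ctrl. The tall region was open in both groups, which overlapped in its pileup. At Pfkfb4 the region chr9:109013081-109013290, inside the gene, had a pileup of 12, 7 and 12, with the nearest Res-ctrl peak 2940 bp away. At Ldha the region chr7:46856697-46856982, 1212 bp beyond the gene, had 12, 11 and 8, and it was no longer called in all 3 libraries at a q of 0.001. For scale, the median pileup of all peaks was 22 to 25 in the Res-shFabp7 lists and 22 to 27 in the Res-ctrl lists. The Pfkp region was above that median in each Res-shFabp7 library by pileup. By fold it was below the median of all peaks, 6.86 to 7.15 in those lists.

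At the HIF genes the regions lay upstream of Hif1a and just inside Egln1. The first, chr12:73875336-73875523, lay 25895 bp from the Hif1a gene and had a pileup of 20, 16 and 18 in the Res-shFabp7 libraries, with the nearest Res-ctrl peak 914 bp away. The other, chr12:73880475-73880663, had 37, 31 and 23 and lay near a tall region of all 6 libraries at chr12:73881293-73882006. Egln1, the main oxygen sensor that hydroxylates Hif1a, had a region at chr8:124947903-124948133, centred 1236 bp downstream of its start, with 22, 23 and 27. The nearest Res-ctrl peak was 305 bp away, in a region shared by all libraries.

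The only region called solely with Res-ctrl lay at P4ha1, which makes collagen prolyl hydroxylase and is a HIF target. It was chr10:59322885-59322968, centred 370 bp upstream of the start, with a pileup of 39, 42 and 44 in the Res-ctrl libraries. The nearest Res-shFabp7 peak was 100 bp away and belonged to the promoter region of all 6 libraries, chr10:59323069-59323904. That region had a pileup of 233, 231 and 233 with Res-shFabp7 and 226, 179 and 284 with Res-ctrl, so the promoter itself was open in both groups and the groups overlapped.

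The calls changed when the lists were cut to equal length or a library was left out. When each list was cut to its strongest 82153 peaks, as many as the shortest holds, Res-shFabp7 alone had 3 member regions and Res-ctrl alone 2, against 1.13% and 0.527% of all regions. In the full lists, leaving out 1 library moved the count of 7 most without Res-ctrl replicate 3, to 14, and without Res-shFabp7 replicate 1, to 13. The share of all regions was then 5.34% and 3.95%, so it was higher too. With equal numbers of peaks, the Hif1a region at chr12:73875336-73875523 and the P4ha1 region, 2 of the 8, were called again. The others at that setting were at Hif1a, inside the gene at chr12:73912157-73912246, and at Pfkfb3 for Res-shFabp7. For Res-ctrl the other was at Eno2, the neuronal enolase. The part of depth in the 7 calls was not tested further.

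**Figure D4:**
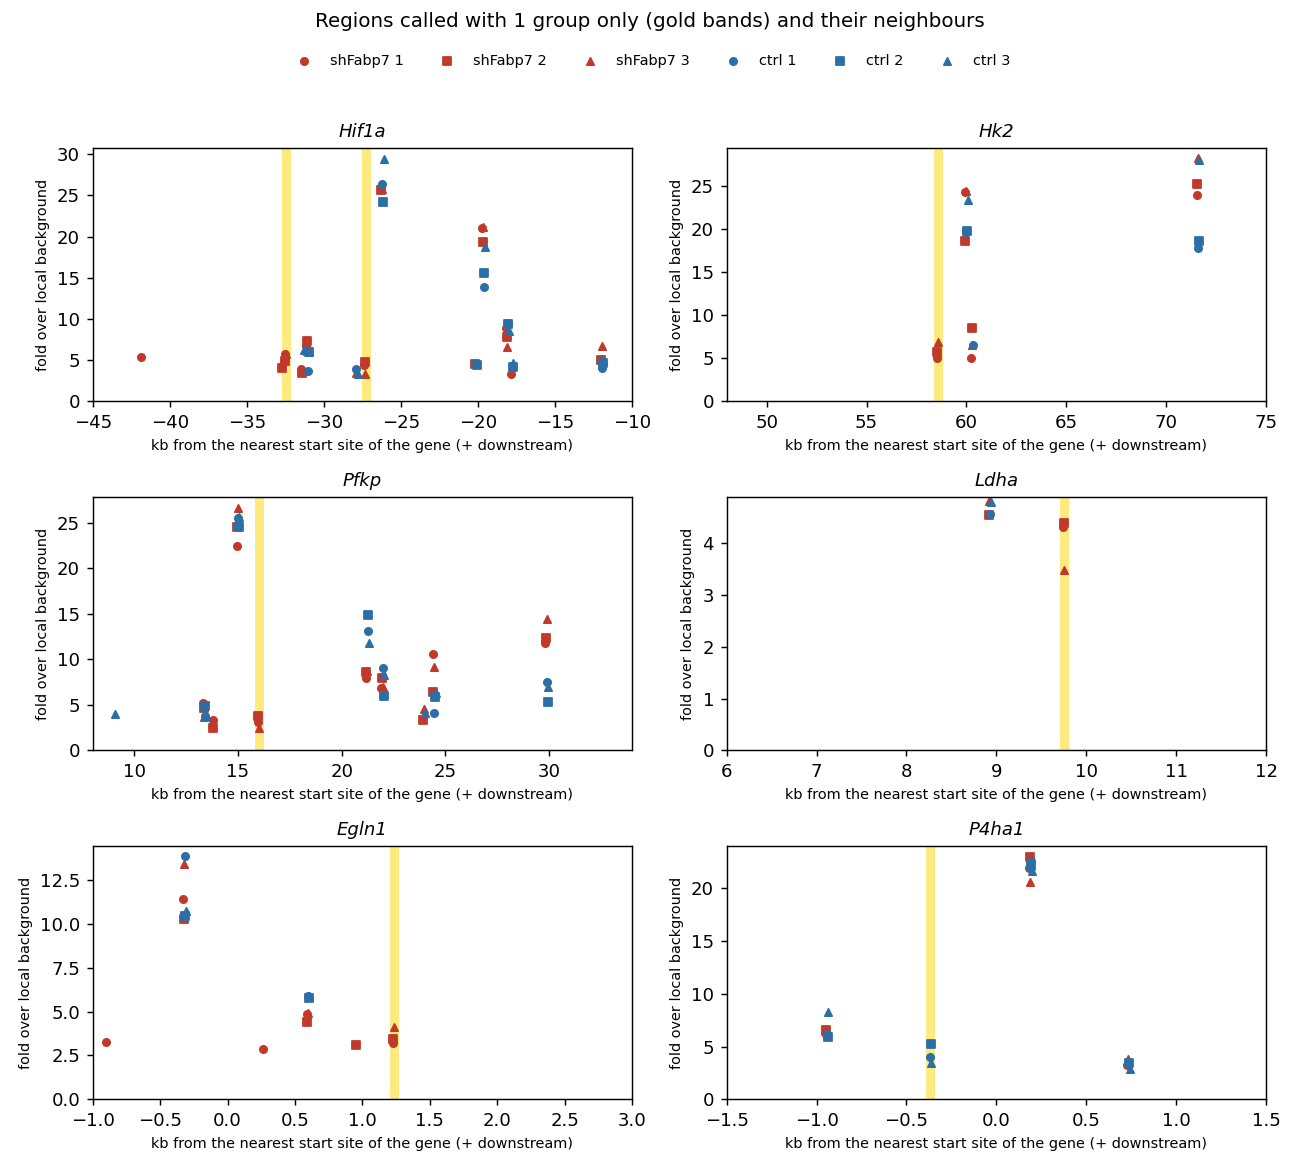
Fold over local background (linear axes from 0) of the tallest peak of each library in each region, by the midpoint of the region relative to the nearest start of the gene (kb, positive downstream) at 6 genes, with points of a region spread slightly sideways, Res-shFabp7 libraries in red and Res-ctrl libraries in blue. Gold bands, drawn wider than the regions, mark 7 of the 8 regions called with 1 group only. They stand at folds of 2.5 to 6.9, while taller regions nearby hold points of both colours.

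Heights of peaks in the 171 regions shared by all 6 libraries did not separate the groups past the threshold. Heights were ranked within each library over the 56610 regions that all libraries share, turned into normal scores and tested with limma, with Benjamini-Hochberg adjustment over all of them. No member region passed an adjusted p of 0.05, and the lowest adjusted p was 0.125. Of all regions, 1 passed (0.00177%). At an unadjusted p under 0.05 there were 20 member regions (11.7%), 7 higher and 13 lower with Res-shFabp7, against 15.7% of all regions, 8.27% higher and 7.4% lower. All 3 Res-shFabp7 scores lay above all 3 Res-ctrl scores in 14 member regions (8.19%), against 11.6% of all regions, and below in 28 (16.4%), against 11.2%.

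The scores at members leaned slightly to the lower side with Res-shFabp7. The median difference, Res-shFabp7 minus Res-ctrl, was -0.06 over the 171 member regions and -0.01 over all regions, on the scale of normal scores. It was negative in 105 of 171 (61.4%), against 52.2% of all regions. At the 31 promoter regions of the 30 genes the score was lower with Res-shFabp7 in 22 and higher in 9, none past the threshold. The same count was not made over the promoter regions of all genes, so it has no background. Only 1 window of each gene was used, which left out the second open windows of Pfkfb3 and Ldha. Their regions scored higher with Res-shFabp7, by 0.06 and 0.05. The regions of 1 gene are neighbours and are not independent.

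The 8 member regions of lowest p are given with their percentiles of height, where a higher percentile is a taller region within its library. They were picked by p, so groups that do not overlap follow largely from that choice and add no support. At Pfkp, chr13:6618726-6619036 inside the gene stood at 32.2, 27.7 and 38.3 with Res-shFabp7, against 13.0, 4.30 and 4.97 with Res-ctrl. The difference in score was 1.05 (SE 0.18), with an adjusted p of 0.125 by limma. All Res-shFabp7 libraries were above all Res-ctrl libraries, replicate 3 of Res-ctrl included. A neighbour in the same gene, chr13:6627418-6627652, ran the other way, at 51.6, 56.0 and 52.6 with Res-shFabp7 against 65.2, 71.5 and 64.9 with Res-ctrl (difference -0.36, adjusted p of 0.179 by limma).

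Bnip3, a receptor that tags mitochondria for autophagy and a HIF target, had the lowest p of any promoter here. Its promoter region chr7:138909119-138910149, which covers the sequence printed above, stood at the 61.3, 59.7 and 58.1 percentiles with Res-shFabp7, against 77.1, 73.3 and 75.1 with Res-ctrl. The difference was -0.43 (SE 0.08), with an adjusted p of 0.134 by limma. The 3 values of each group lay close together and the groups did not overlap. At Gpi1, glucose phosphate isomerase, the promoter region chr7:34230040-34230555 stood at 86.6, 82.4 and 84.4 with Res-shFabp7, against 89.1, 90.4 and 92.5 with Res-ctrl (difference -0.31, adjusted p of 0.224 by limma).

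The remaining 4 of the 8 regions lay at Egln1, P4ha1, Slc16a1 and Egln3. At Egln1 the region chr8:124948439-124948875, next to the one called only with Res-shFabp7, stood at 35.1, 33.9 and 34.3 with Res-shFabp7, against 51.5, 45.7 and 47.8 with Res-ctrl (difference -0.36, adjusted p of 0.157 by limma). At P4ha1 the region chr10:59309126-59309294, upstream of the gene, stood at 5.07, 24.3 and 9.12 with Res-shFabp7, against 39.1, 35.2 and 40.6 with Res-ctrl (difference -0.93, adjusted p of 0.182 by limma). In both regions every Res-shFabp7 library stood below every Res-ctrl library. At Slc16a1 the region chr3:104616007-104616625, 22348 bp upstream of the gene, stood at 87.1, 80.6 and 80.8 with Res-shFabp7, against 62.4, 69.3 and 75.1 with Res-ctrl (difference 0.46, adjusted p of 0.205 by limma). Egln3 had its own at chr12:54188745-54188952, inside the gene, with 21.5, 18.7 and 25.2 with Res-shFabp7, against 29.9, 31.1 and 32 with Res-ctrl (difference -0.29, adjusted p of 0.222 by limma). In each of the 4 the groups did not overlap.

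Genes differed in the sign of their scores. All 8 shared regions of Hk2 scored higher with Res-shFabp7, with a median difference of 0.24, and 9 of 13 did at Hif1a and 8 of 10 at Slc16a1. All 8 at Slc2a1 and all 6 at Egln1 scored lower, with medians of -0.13 and -0.28, and 10 of 12 did at Slc2a3. How many of all genes have shared regions of a single sign was not counted. No Hk2 region reached an unadjusted p of 0.05, the lowest being 0.051 by limma. At Hk2, the shallower Res-ctrl replicates 1 and 2 were the low ones in a region inside the gene. That region, chr6:82740352-82740657, stood at 76.2, 72.8 and 66.9 with Res-shFabp7, against 39.1, 55.7 and 71.9 with Res-ctrl, so that Res-ctrl replicate 3 lay within the Res-shFabp7 range. Of the 8 Hk2 regions, Res-ctrl replicate 3 lay below every Res-shFabp7 library only at chr6:82702713-82703013 and chr6:82822075-82822282. Whether depth had a part in these scores was not tested.

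**Figure D5:**
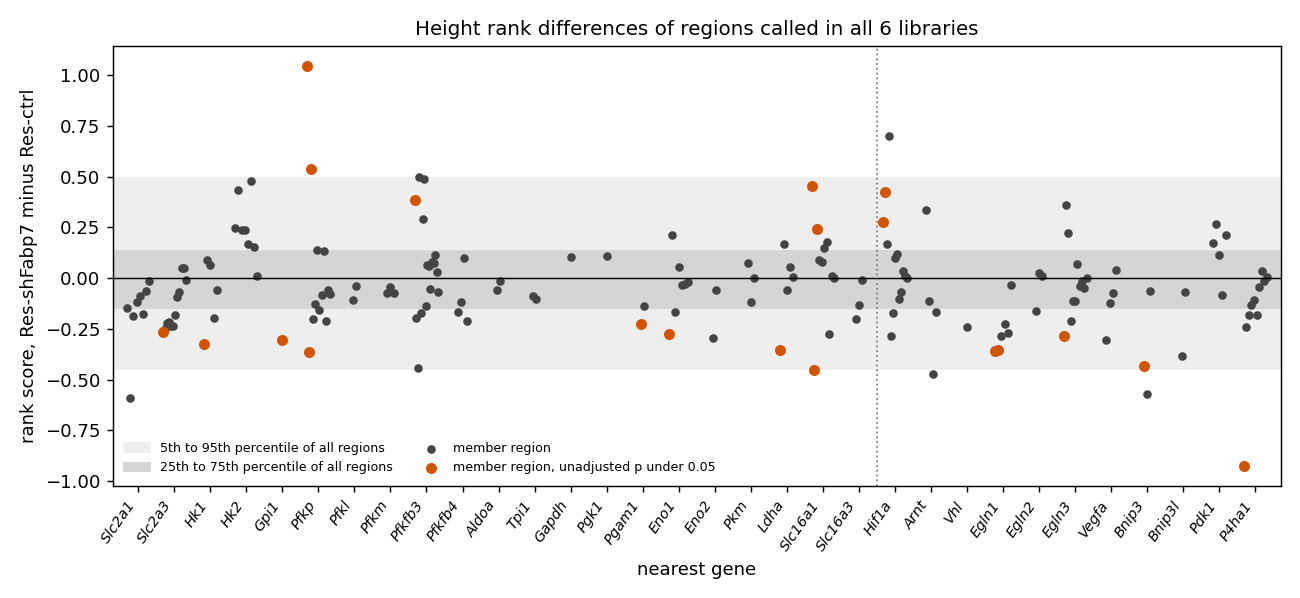
Difference in normal score of height rank, Res-shFabp7 minus Res-ctrl, for each of the 171 member regions called in all 6 libraries, by gene, with grey bands for the middle 50% and 90% of all 56610 regions and orange points for an unadjusted p under 0.05. No region passed adjustment, Hk2 lies wholly above 0, and Slc2a1 and Egln1 lie wholly below.

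The groups overlapped in the share of each list that was assigned to the genes. Member peaks numbered 274, 296 and 285 with Res-shFabp7 and 241, 249 and 279 with Res-ctrl. Per 1000 peaks of the list this was 2.62, 2.8 and 2.84 with Res-shFabp7 and 2.84, 3.03 and 2.90 with Res-ctrl. The means were 2.75 ± 0.118 and 2.92 ± 0.0978 (SD, n = 3 each), with a two-sided exact permutation p of 0.2, where 0.1 is the smallest that 3 against 3 libraries allow. The glycolysis genes had 1.74 ± 0.0907 with Res-shFabp7 and 1.82 ± 0.0363 with Res-ctrl (n = 3 each, exact permutation p of 0.3). The HIF genes had 1.01 ± 0.0370 with Res-shFabp7 and 1.1 ± 0.0657 with Res-ctrl (n = 3 each, exact permutation p of 0.2). In each case the groups overlapped. At equal numbers of peaks the glycolysis difference changed sign, to 0.00406 per 1000 (exact permutation p of 1.0).

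Other genes of both pathways were also open in most cases. Of 35 further glycolysis and pyruvate genes, 32 had a region in all 6 libraries, and 71 of their 150 regions (47.3%) were called in all 6. Of their regions, 3 were called only with Res-shFabp7, at Dlat, Pfkfb2 and Pgam2, which is 2.0% against 2.28% of all regions, and 0 only with Res-ctrl. All 24 further HIF pathway genes had such a region, with 134 of 296 regions (45.3%) in all 6 libraries. Of these regions, 9 were called only with Res-shFabp7, 2 each at Arnt2, Egfr and Ndrg1 and 1 each at Bhlhe40, Epas1 and Siah2, and 2 only with Res-ctrl, at Egfr and Kdm3a. These are 3.04% and 0.676% of the 296 regions, against 2.28% and 0.155% of all regions.

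Shares of peaks at marker genes were set beside these values. B cell markers took 0.208 to 0.249 of 1000 peaks with Res-shFabp7 and 0.146 to 0.189 with Res-ctrl, and 5 of 7 had a region in all libraries. Epithelial tumour markers took 0.170 to 0.180 with Res-shFabp7 and 0.125 to 0.158 with Res-ctrl, with 2 of 7 genes called in all libraries. CD8 T cell markers took 2.24 to 2.50 with Res-shFabp7 and 2.59 to 2.71 with Res-ctrl. The groups did not overlap in these 3 lists or in CD4 and regulatory T cell markers, at 0.388 to 0.419 with Res-shFabp7 and 0.426 to 0.519 with Res-ctrl, and their part in the results above was not tested. NK cell markers took 0.359 to 0.383 with Res-shFabp7 and 0.377 to 0.436 with Res-ctrl, and 2 of 4 had a region in all libraries. Myeloid markers took 0.268 to 0.340 with Res-shFabp7 and 0.280 to 0.295 with Res-ctrl, with 4 of 7 called in all libraries.

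Gapdh, Pgk1, Ldha, Eno1 and Tpi1 have processed copies elsewhere in the mouse genome. How reads matching several places were treated is not stated in the sources used here, so peaks in their exons are less certain than those at promoters.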

How the data were processed

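Peak lists of 6 ATAC-seq libraries were used, 3 Res-shFabp7 and 3 Res-ctrl. MACS2 2.2.7.1, Bowtie 1.1.2, Trim Galore 0.6.5, cutadapt 2.8 and build mm10 are named in the submitters' processing notes. Per the labels' protocols, reads were paired and 76 bases long, with 35 to 75 M pairs for each library. Read shifting for the transposase, duplicate removal and the MACS2 mode are not stated in the sources used here. Lists were deposited by the authors for each library, called separately at a q of 0.05. In the deposited lists p-values and q-values are −log10 values, the pileup is the coverage signal of the summit, and the fold is a ratio over local background. Neither read counts nor the depth of a single library are in these lists, so no counting interval is given. Starts count from 1 here and appear to count from 0 in the lists. The local background was recovered from pileup and fold, assuming that 1 was added on each side of the ratio.

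Peaks overlapping by at least 1 bp were merged. Gene bodies and starts came from RefSeq on GRCm38.p6, whose primary assembly is that of mm10. All 32 members matched that table. Exons are not in it, so exons, introns and UTRs are not given. Shares were compared by two-sided exact permutation over libraries. Height ranks of regions called in all 6 libraries were compared with limma 3.58.1 (R 4.3.3), using the tallest peak of each library in a region. Other steps used Python 3.11.15, pandas 2.3.3, numpy 2.4.6, scipy 1.17.1 and matplotlib 3.10.9. The scripts were tested on simulated data. Regions named are those called with 1 group only, the 8 of lowest p by limma (since none passed) and promoter regions. The tallest shared region of a gene by mean fold, and regions set beside these, are named too. Members, pathway lists and marker lists were chosen with earlier results of these data known. Alternatives were a q of 0.01 or 0.001, equal numbers of peaks, a distance of 20 kb, 50% cover of a region, assignment by any summit, other height scales, regions with exactly 1 peak in every library, a replicate block and leaving out each library. Using Res-ctrl replicate 3 as the only Res-ctrl library was added after seeing the data.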

Additional observations from a re-analysis of the deposited data

How the results depend on the processing

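With equal numbers of peaks the difference in the glycolysis share reversed, to 0.00406 per 1000 (exact permutation p of 1.0); the differences for all members (-0.0406) and HIF genes (-0.0446) stayed negative. Regions called only with Res-shFabp7 numbered 3 with equal numbers of peaks (1.13% of all regions) and 13 with Res-ctrl replicate 3 as the only Res-ctrl library (4.27% of all), a setting added after seeing the data. Leaving out 1 library gave 9 to 14, with 13 without Res-shFabp7 replicate 1 (3.95% of all) and 14 without Res-ctrl replicate 3 (5.34% of all). Regions called only with Res-ctrl numbered 2 with equal numbers (0.527% of all), 2 when peaks had to cover 50% of a region (0.178% of all), 16 with Res-ctrl replicate 3 alone (4.52% of all) and 1 to 4 when 1 library was left out. They numbered 2 without Res-shFabp7 replicate 1 (0.357% of all), 4 without Res-shFabp7 replicate 3 (0.320% of all) and 3 without Res-ctrl replicate 1 (0.515% of all). Fewer libraries make both counts easier to reach by construction. The share differences ranged from -0.214 to -0.102 for all members, -0.124 to -0.0336 for glycolysis and -0.121 to -0.0549 for HIF genes when 1 library was left out. The number of member regions passing limma was 0 in all 11 alternatives, with a lowest adjusted p of 0.0789 to 0.279. Libraries with the same replicate number hardly correlated in their deviations from the group mean (-0.0245, 0.0150 and -0.0158). That cannot settle whether they were paired by design. With a replicate block 0 member regions passed limma, and the exact sign-flip p of the shares was 0.25, 0.5 and 0.25 for all members, glycolysis and HIF genes, each difference unchanged at -0.169, -0.0810 and -0.0881. A missing peak in the shorter Res-ctrl lists is not the absence of open chromatin.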
